A study of Mus musculus with 10 samples.

Results

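Keratins are the filament proteins of epithelial cells, and 10 of their genes were followed here in mouse kidney: Krt5, Krt7, Krt8, Krt14, Krt15, Krt17, Krt18, Krt19, Krt20 and Krt23. The genes were chosen by name as keratins known from kidney tubules, collecting ducts and the urothelium that lines the renal pelvis, and were found by their Ensembl identifiers among the 46517 genes of the count tables, which hold 44 other keratin genes. The filter on low counts was passed by 17823 genes, the 10 keratins among them; Krt17 passed through its G2 libraries alone, so its fitted values are given as a description and it is left out of the counts and medians below. Poly(A) RNA of whole kidney was sequenced as single-end reads of 100 bases in 10 libraries, in a study that expressed variants of the human gene APOL1 in mouse podocytes, the epithelial cells of the glomerular filter. Carrying the G1 or G2 allele is known to raise the risk of kidney disease in people. There were 2 kidney libraries labelled G1-APOL1, 2 labelled G2-APOL1, 3 labelled wild type (single mutant) and 3 labelled Control. What "single mutant" stands for, which promoter drives the transgene, and how old and of which sex the mice were is not stated in the labels. Nor is it stated whether the libraries of a group are from different mice, and p-values therefore measure only the spread between these libraries.

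Keratin filaments are built from pairs, each of a type I and a type II protein, and neither kind forms filaments without the other. Krt8 (type II) and Krt18 (type I) are the pair of simple, single-layered epithelia; Krt7 (type II) and Krt19 (type I) mark ducts and urothelium; Krt5 (type II), Krt14 and Krt15 (type I) mark basal cells of layered epithelia. In the kidney, keratins are known to be plentiful in collecting duct and urothelium and sparse in the healthy proximal tubule, and Krt8, Krt18 and Krt20 are known to be made by injured tubules.

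The genes lie in clusters on 2 chromosomes (GRCm38, GENCODE M21). The type I genes Krt14, Krt15, Krt17, Krt19, Krt20 and Krt23 are on chromosome 11, and the type II genes Krt5, Krt7 and Krt8 on chromosome 15. Krt18 is the exception among the type I genes, standing on chromosome 15 from 102028180 to 102032027 beside its partner Krt8, which spans 101996698 to 102004482 on the opposite strand. Krt20 spans 99428403 to 99438150 on the minus strand of chromosome 11.

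The promoters of 4 genes are shown because these rose in kidneys with a risk allele and have a window in the RefSeq table; Krt19 also rose, and is not shown. RefSeq (GRCm38.p6) gave windows of 300 bases, 250 before to 50 after the start, for 7 of the 10 genes. Capitals mark matches, on either strand, to TATAAA (the TATA box), GGGCGG (the GC box bound by Sp1-type factors) and GGAATG (the core of the site bound by TEAD factors); TGANTCA, the AP-1 site, was searched as well.
Krt20 promoter: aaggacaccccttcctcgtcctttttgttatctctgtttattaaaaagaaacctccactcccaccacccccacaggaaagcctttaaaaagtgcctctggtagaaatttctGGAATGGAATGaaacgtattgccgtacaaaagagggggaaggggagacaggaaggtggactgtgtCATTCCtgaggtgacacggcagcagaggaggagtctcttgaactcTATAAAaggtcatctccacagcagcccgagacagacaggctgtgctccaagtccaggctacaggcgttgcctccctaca
Krt8 promoter: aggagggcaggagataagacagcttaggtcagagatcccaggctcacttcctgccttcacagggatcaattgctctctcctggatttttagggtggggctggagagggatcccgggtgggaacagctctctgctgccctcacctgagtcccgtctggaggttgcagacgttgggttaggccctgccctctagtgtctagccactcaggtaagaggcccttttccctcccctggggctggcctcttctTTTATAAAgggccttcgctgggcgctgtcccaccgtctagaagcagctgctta
Krt18 promoter: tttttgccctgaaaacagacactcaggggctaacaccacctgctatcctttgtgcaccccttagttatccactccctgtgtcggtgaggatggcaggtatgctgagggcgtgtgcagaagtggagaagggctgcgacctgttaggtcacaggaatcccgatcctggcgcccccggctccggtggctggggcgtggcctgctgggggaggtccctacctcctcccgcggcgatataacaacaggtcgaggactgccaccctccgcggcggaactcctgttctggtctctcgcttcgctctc
Krt7 promoter: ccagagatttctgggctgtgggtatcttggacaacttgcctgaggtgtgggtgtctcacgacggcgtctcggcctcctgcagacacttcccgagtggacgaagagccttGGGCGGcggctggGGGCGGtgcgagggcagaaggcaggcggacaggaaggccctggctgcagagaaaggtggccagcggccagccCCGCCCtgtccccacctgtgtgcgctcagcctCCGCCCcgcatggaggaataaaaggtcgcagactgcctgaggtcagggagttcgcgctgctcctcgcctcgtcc

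The Krt20 window (chr11:99438104-99438403, minus strand) held 3 matches to GGAATG, of which the first 2 share 1 base, and a single match to TATAAA. The letters GGAATG were present in 14.7% of the 32851 RefSeq windows of this length, and 3 or more were present in 0.131%. The Krt8 window (chr15:102004293-102004592, minus strand) held 2 overlapping matches to TATAAA, read on opposite strands, and none of the other motifs. They begin at bases 248 and 250 of the window and so lie across the RefSeq start, which is 140 bases from the GENCODE start. TATAAA was present in 13.6% of all windows. The Krt18 window (chr15:102027966-102028265, plus strand) held none of the motifs searched. The Krt7 window (chr15:101412153-101412452, plus strand) held 4 matches to GGGCGG, which 35.7% of windows contain, and its RefSeq start lies 1360 bases from the GENCODE start of the gene. The letters TGANTCA were in 0 of the 7 windows, against 7.81% of all windows. These matches describe letters in a window, not bound sites.

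Library totals ran from 27596391 to 34815153 counts, and levels are given below as CPM, counts per 1000000 scaled by the TMM method. One library stood apart from the other 9: G1 replicate 2 had 360 CPM of Xist, the transcript of the inactive X chromosome, against at most 1.13 CPM elsewhere, and 0.201 CPM of the Y-linked gene Ddx3y, against 36.1 to 51.7 CPM elsewhere. Results that rest on it are given with and without it. The tissue label fitted the markers: 8 of 8 kidney genes (among them Umod, Slc34a1 and Aqp2) were detected in every library, with summed levels from 5047 to 15502 CPM. Of the other 9 keratins, 5 rose in the kidneys with a risk allele (G1 and G2 together, as the mean of both groups) against Control, and 0 fell: Krt8, Krt18, Krt7, Krt19 and Krt20. In this comparison 37.3% of all tested genes were called at an edgeR adjusted p under 0.05, 19.3% as higher and 18% as lower. By the plainer measure that every risk-allele library exceeded every Control library, the same 5 of 9 stood higher, against 20.7% of all tested genes. The median log2 fold change was 1.28 over the 9 keratins and 0.00 over all tested genes. Kidney was measured whole, so more cells of a type and more RNA per cell cannot be told apart.

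**Figure D1:**
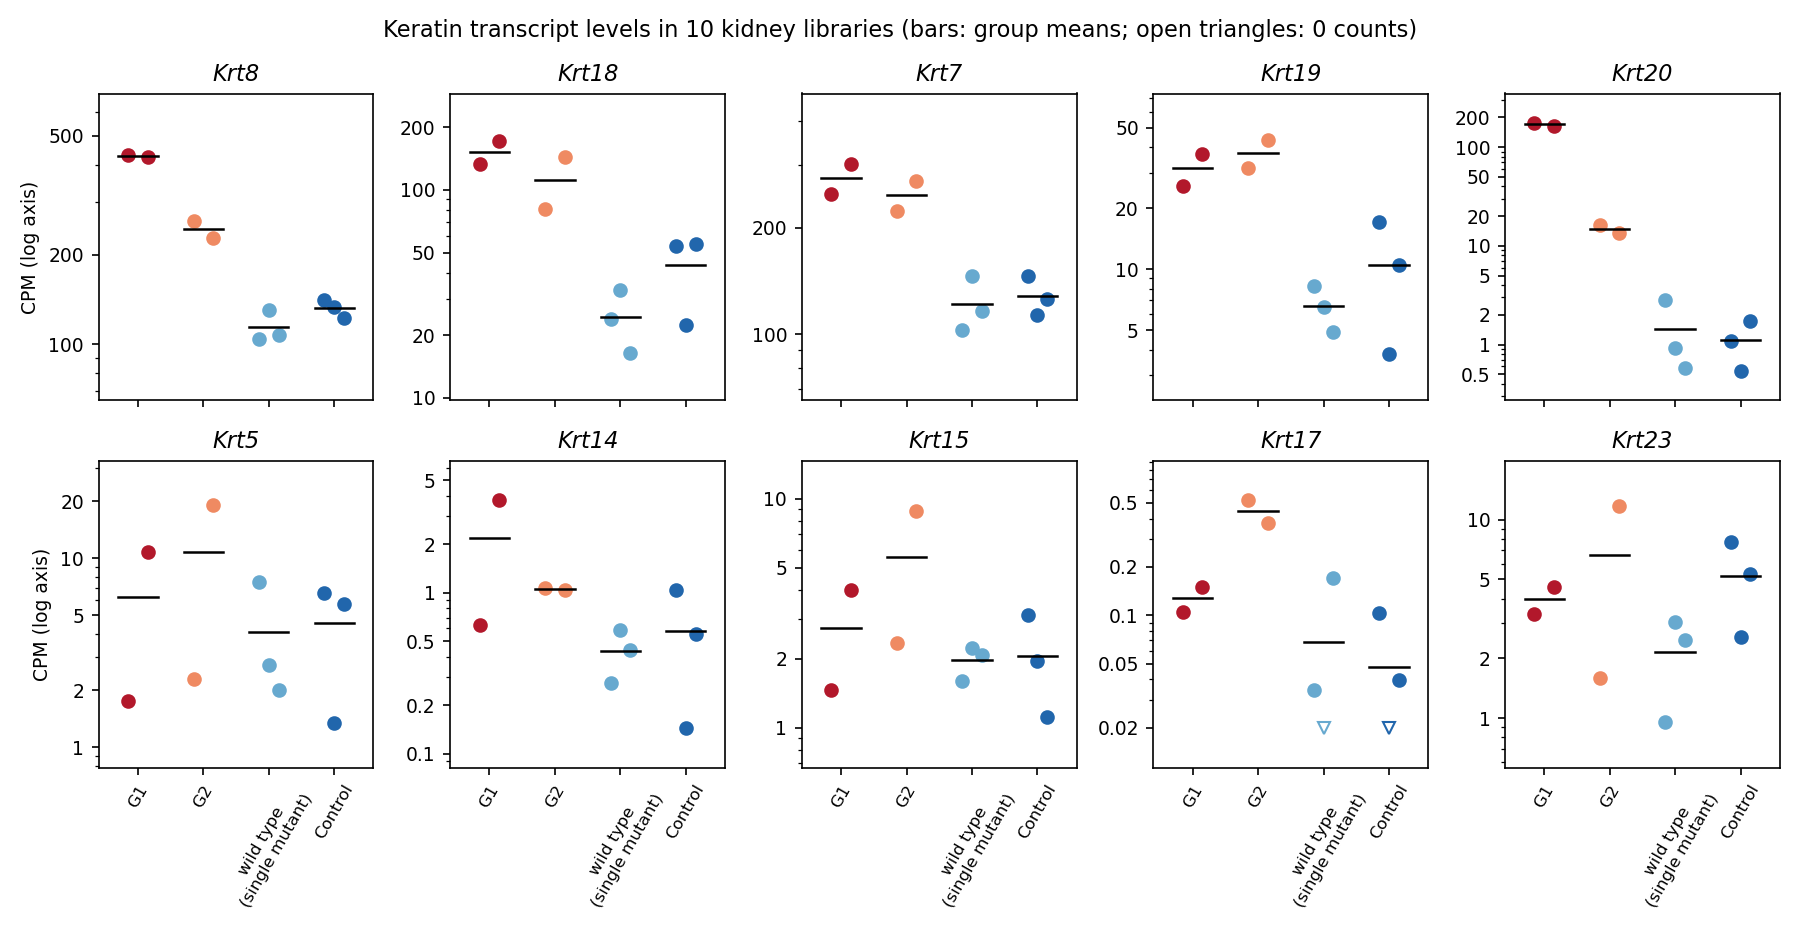
Levels of the 10 keratin genes in CPM (log axis, a scale of its own per gene), 1 point per library, with bars for group means and open triangles for libraries with 0 counts. The G1 and G2 points lie above all wild type (single mutant) and Control points for Krt8, Krt18, Krt7, Krt19 and Krt20 (top row), while Krt5, Krt15 and Krt23 (bottom row) overlap between groups.

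Krt8, the type II partner of the simple-epithelium pair, had the highest level of the keratins in every group once levels were divided by transcript length. It measured 431 and 425 CPM in G1, 259 and 227 CPM in G2, 104, 130 and 107 CPM in wild type (single mutant), and 141, 133 and 123 CPM in Control. The G1 libraries were the highest, the G2 libraries lay between, and neither overlapped with the 6 others. Krt8 rose 3.23-fold in G1 against Control (log2 1.69 ± 0.12 SE, edgeR adjusted p = 4.36e-05) and 1.84-fold in G2 (log2 0.88 ± 0.12, edgeR adjusted p = 0.00219). Of the stretches of 100 bases in the Krt8 transcript, 17.1% also occur in other genes, nearly all of them in the pseudogene Krt8-ps, so a share of its reads may have been counted elsewhere or left out.

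Krt18, the type I partner of Krt8, rose as well but spread more widely. It measured 133 and 172 CPM in G1, 80.7 and 144 CPM in G2, 23.9, 32.9 and 16.4 CPM in wild type (single mutant), and 53.8, 22.4 and 54.8 CPM in Control. All 4 risk-allele libraries exceeded the 6 others, and within Control replicate 2 was less than the other 2. The increase was 3.49-fold in G1 against Control (log2 1.80 ± 0.42, edgeR adjusted p = 0.00919) and 2.57-fold in G2 (log2 1.36 ± 0.42, edgeR adjusted p = 0.0462). The G1 call was lost without G1 replicate 2 (log2 1.63, edgeR adjusted p = 0.0625), and the G2 call was lost without any 1 of the 5 libraries compared (log2 0.87 to 1.67, edgeR adjusted p = 0.0614 to 0.275).

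The counts of Krt8 per count of Krt18 give the balance of this pair in each library. The ratio was 3.25 and 2.47 in G1, 3.21 and 1.58 in G2, 4.38, 3.95 and 6.55 in wild type (single mutant), and 2.62, 5.96 and 2.24 in Control. The risk-allele libraries lay below all wild type (single mutant) libraries and overlapped with those of Control. The mean log2 ratio was 0.66 lower in the 4 risk-allele libraries than in the 6 others (1.34 against 1.99), a difference that did not exceed the spread (exact two-sided permutation test, p = 0.124; the smallest p this design allows is 0.00952). Against Control alone the difference was -0.37 (exact permutation p = 0.514), and against wild type (single mutant) alone, where no library overlapped, it was -0.94 (exact permutation p = 0.0571). With 4 libraries against 3, 0.0571 is the smallest p these designs allow, so neither could pass the threshold.

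Krt7, a type II keratin of ducts and urothelium, rose to a similar degree in both allele groups. It measured 249 and 302 CPM in G1, 222 and 271 CPM in G2, 103, 146 and 116 CPM in wild type (single mutant), and 146, 113 and 126 CPM in Control. The G1 and G2 libraries overlapped with each other and with none of the rest. Krt7 rose 2.15-fold in G1 against Control (log2 1.10 ± 0.18, edgeR adjusted p = 0.00167) and 1.92-fold in G2 (log2 0.94 ± 0.18, edgeR adjusted p = 0.00701). Without G2 replicate 2 the G2 value was 0.78 (edgeR adjusted p = 0.0517).

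Krt19, the small type I keratin found with Krt7 in ducts, was scarcer than Krt7 in every library and rose in both allele groups. It measured 25.9 and 37.1 CPM in G1, 31.5 and 43.6 CPM in G2, 8.28, 6.50 and 4.87 CPM in wild type (single mutant), and 17.0, 3.80 and 10.5 CPM in Control. The risk-allele libraries were all higher than the rest, and Control replicate 2 was the lowest of all 10. The increase was 3.01-fold in G1 against Control (log2 1.59 ± 0.49, edgeR adjusted p = 0.0315) and 3.59-fold in G2 (log2 1.85 ± 0.49, edgeR adjusted p = 0.0281). The G1 call was lost without G1 replicate 1 (edgeR adjusted p = 0.0633), G1 replicate 2 (0.167) or Control replicate 3 (0.0739). The G2 call was lost without G2 replicate 1 (edgeR adjusted p = 0.0709), G2 replicate 2 (0.124) or Control replicate 3 (0.0713).

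Krt20, a type I keratin of gut lining and urothelial surface cells, changed most of the 10. It measured 174 and 164 CPM in G1, 16.1 and 13.5 CPM in G2, 2.80, 0.913 and 0.579 CPM in wild type (single mutant), and 1.08, 0.543 and 1.75 CPM in Control. The groups formed 3 steps without overlap, with G1 far above G2 and G2 above the 6 remaining libraries, whose own ranges overlapped. Krt20 rose 152-fold in G1 against Control (log2 7.24 ± 0.59, edgeR adjusted p = 6.72e-05) and 13.3-fold in G2 (log2 3.73 ± 0.55, edgeR adjusted p = 0.00257). Both calls held without any single library, with log2 values from 6.91 to 7.69 in G1 and from 3.40 to 4.18 in G2. No stretch of 100 bases in its transcript occurs in another gene.

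**Figure D2:**
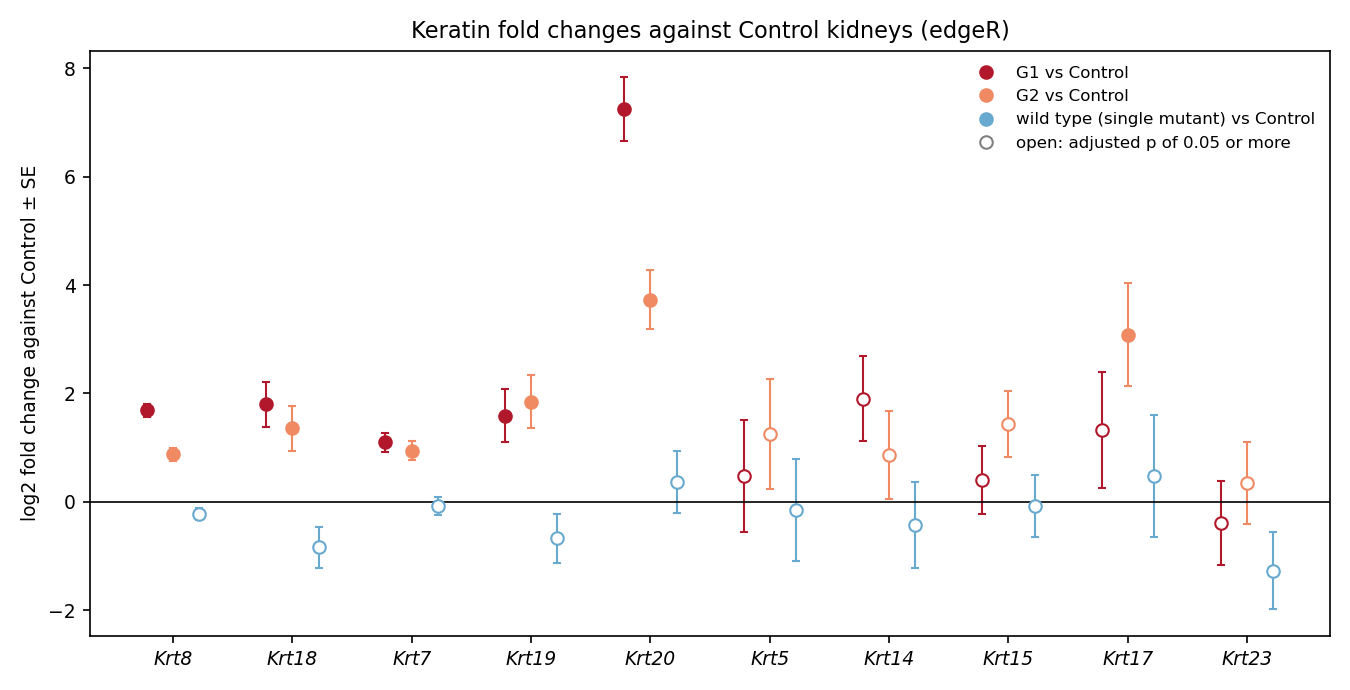
Log2 fold change against Control with its standard error (edgeR) for each keratin in G1, G2 and wild type (single mutant); filled points passed an adjusted p of 0.05. Krt20 stands highest at 7.24 in G1 and 3.73 in G2, Krt8 also stands higher in G1 than in G2, and no wild type (single mutant) point is filled.

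The alleles differed for Krt20 and Krt8, the 2 keratins of 9 that were called between G2 and G1; both were lower in G2. Over all genes 6.72% were called in this comparison, 3.84% as higher and 2.88% as lower. Both G2 libraries stood below both G1 libraries for these 2 keratins, and for 26.7% of all genes. The G2 level was lower by 3.52 on the log2 scale for Krt20 (log2 fold change -3.52 ± 0.57, edgeR adjusted p = 0.0147) and the log2 fold change of Krt8 was -0.82 ± 0.14 (edgeR adjusted p = 0.0155). Neither call held without G1 replicate 1, G1 replicate 2 or G2 replicate 2: without these the log2 values were -3.61 to -3.43 for Krt20 (edgeR adjusted p = 0.08 to 0.0851) and -0.88 to -0.77 for Krt8 (edgeR adjusted p = 0.0808 to 0.0927). Over all genes, 84 were called without G1 replicate 1, 22 without G1 replicate 2 and 191 without G2 replicate 2, against 1198 with all libraries. The G2 over G1 values of the other 3 that rose were -0.44 ± 0.46 for Krt18, -0.16 ± 0.20 for Krt7 and 0.25 ± 0.54 for Krt19, and were not called.

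Krt23, a type I keratin of gut and other glandular epithelia, did not differ by allele group beyond its spread. It measured 3.35 and 4.58 CPM in G1, 1.59 and 11.7 CPM in G2, 0.958, 3.03 and 2.49 CPM in wild type (single mutant), and 7.70, 2.57 and 5.33 CPM in Control. The highest and the second lowest of the 10 values were both G2 libraries. Its log2 fold change against Control was -0.39 ± 0.77 in G1 and 0.35 ± 0.76 in G2 (edgeR adjusted p = 0.717 and 0.773).

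Krt5, Krt14, Krt15 and Krt17, the keratins of layered and wounded epithelia, were scarce and uneven. Krt5, the type II keratin of basal cells, measured 1.76 and 10.8 CPM in G1, 2.30 and 19.2 CPM in G2, 7.49, 2.74 and 2.01 CPM in wild type (single mutant), and 6.52, 1.34 and 5.73 CPM in Control. Replicate 2 was the higher library in both allele groups, and the groups overlapped. Its log2 fold change against Control was 0.47 ± 1.03 in G1 and 1.25 ± 1.02 in G2 (edgeR adjusted p = 0.746 and 0.416). Krt15, a type I keratin of basal cells, followed the same order within the allele groups, with 1.47 and 4.0 CPM in G1, 2.34 and 8.84 CPM in G2, 1.61, 2.23 and 2.08 CPM in wild type (single mutant), and 3.12, 1.95 and 1.11 CPM in Control. Its log2 fold change against Control was 0.40 ± 0.63 in G1 and 1.44 ± 0.62 in G2 (edgeR adjusted p = 0.641 and 0.13).

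Krt14, the type I partner of Krt5, measured 0.629 and 3.75 CPM in G1, 1.07 and 1.05 CPM in G2, 0.274, 0.584 and 0.443 CPM in wild type (single mutant), and 1.04, 0.145 and 0.557 CPM in Control. G1 replicate 2 was the highest library, and both G2 libraries were narrowly above the highest Control library. Its log2 fold change against Control was 1.90 ± 0.79 in G1 and 0.86 ± 0.81 in G2 (edgeR adjusted p = 0.0882 and 0.488). Without G1 replicate 2 the G1 value was 0.14. Of its stretches of 100 bases, 2.88% also occur in Krt16, which had at most 2 counts in any library; for Krt5 the share was 3.81%, mostly with Krt6a, which had at most 1 count.

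Krt17, a type I keratin known to be switched on in wounded skin, stood at the limit of detection. It had 4 and 6 counts in G1, 16 and 15 counts in G2, 1, 0 and 5 counts in wild type (single mutant), and 3, 0 and 1 counts in Control. Both G2 libraries were above all others, and the gene passed the low-count filter through those libraries alone, so a difference was built into its entry. The fitted G2 value against Control, log2 3.09 ± 0.94 (edgeR adjusted p = 0.0467; 0.0524 to 0.161 without any 1 of the 5 libraries compared), is therefore a description and no support for a rise. In G1 its log2 fold change was 1.33 ± 1.07 (edgeR adjusted p = 0.361).

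In counts of calls, 5 of the 9 keratins other than Krt17 rose in G1 against Control, where 37.3% of all genes were called, 19.5% as higher and 17.9% as lower. In G2 against Control the same 5 rose, where 21.6% of all genes were called, 12.7% as higher and 8.86% as lower. Without overlap between libraries, 5 of 9 stood above Control in G1 and 6 of 9 in G2 (the 5 and Krt14), as did 32.3% of all genes in G1 and 27.5% in G2. The median log2 fold change over the 9 keratins was 1.59 in G1 and 1.25 in G2, against -0.02 and 0.04 over all genes. Both comparisons use the same Control libraries. Without G1 replicate 2 the count in G1 was 3, with Krt18 and Krt19 lost, where 11.5% of all genes were called higher in place of 19.5%. The G2 count was 3 without G2 replicate 1, 2 without G2 replicate 2, 4 without Control replicate 1 or Control replicate 2, and 3 without Control replicate 3. The share of all genes called higher in G2 fell as well, from 12.7% to 6.32% without G2 replicate 1 and 8.80% without G2 replicate 2. It was 9.36%, 11.2% and 9.57% without Control replicate 1, 2 and 3.

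Set against wild type (single mutant) in place of Control, the same 5 keratins rose in the risk-allele kidneys and 0 fell, where 40.0% of all genes were called, 20.7% as higher and 19.3% as lower. Log2 fold changes were 5.12 ± 0.52 for Krt20, 2.42 ± 0.38 for Krt18, 2.39 ± 0.45 for Krt19, 1.5 ± 0.11 for Krt8 and 1.10 ± 0.16 for Krt7 (edgeR adjusted p = 5.97e-05 to 0.00324). The corresponding values against Control were 5.49 ± 0.54, 1.58 ± 0.37, 1.72 ± 0.44, 1.28 ± 0.11 and 1.02 ± 0.15 (edgeR adjusted p = 9.3e-05 to 0.0144). All 5 stayed called in both comparisons without any single library, G1 replicate 2 included. Krt14 had a log2 fold change of 1.81 ± 0.73 over wild type (single mutant), and was not called (edgeR adjusted p = 0.076), though its libraries did not overlap; with the 5 that rose, 6 of the 9 keratins were higher without overlap here, as were 21.6% of all genes.

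No keratin was called between wild type (single mutant) and Control. In that comparison edgeR called 0 of 10 keratins and 0.0% of all genes, with 724 of the 17823 at an unadjusted p under 0.05; DESeq2 called 14 genes, and 0 keratins. The log2 fold changes of the keratins ran from -1.27 ± 0.71 for Krt23 to 0.47 ± 1.12 for Krt17. Krt8 (-0.22 ± 0.11) and Krt18 (-0.84 ± 0.38) had unadjusted p-values of 0.0839 and 0.0557 in edgeR.

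Levels of different keratins can be compared once divided by the length of their transcripts. Per kilobase of coding transcript, the order in G1 was Krt8 (218 ± 2.16 CPM per kilobase, SD), Krt18 (106 ± 19.5), Krt20 (87.8 ± 3.54), Krt7 (67.3 ± 9.21) and Krt19 (20 ± 5.04), with no overlap between neighbours. In G2 the order was Krt8, Krt18, Krt7, Krt19 and Krt20, where Krt18 (78 ± 31) and Krt7 (60.2 ± 8.51) overlapped. In wild type (single mutant) Krt8 (58.2 ± 7.20), Krt7 (29.8 ± 5.44) and Krt18 (17 ± 5.76) led without overlap, and in Control Krt8 (67.6 ± 4.68) led, with Krt7 (31.3 ± 4.05) and Krt18 (30.4 ± 12.8) overlapping. Krt20 was thus among the leading keratins in G1, and ranked 8 of 10 in wild type (single mutant) (0.743 ± 0.623) and in Control (0.583 ± 0.314), where it overlapped with its neighbours Krt15 and Krt14. Krt17 was last in all 4 groups.

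Among the type I keratins followed here, the make-up shifted with Krt20. Shares are of the followed keratins only, and leave out others that passed the filter, such as Krt10 and Krt80. Krt20 supplied 44.6% and 36.1% of this type I RNA per kilobase in G1, 9.51% and 4.74% in G2, 5.81%, 1.52% and 1.67% in wild type (single mutant), and 0.992%, 1.33% and 1.81% in Control. Krt18 supplied the largest share in every library, from 45.6% in G1 replicate 1 to 76.1% in Control replicate 3. Within the followed type II keratins, Krt8 supplied 60.8% to 78.1% and Krt7 21.6% to 34.7%.

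Over the same followed keratins, without Krt10, Krt80 and the rest, the ratio of summed type II to summed type I RNA per kilobase was taken. It was 1.39 and 1.25 in G1, 2.13 and 1.29 in G2, 3.27, 3.33 and 4.68 in wild type (single mutant), and 1.97, 4.56 and 1.91 in Control. Both G1 libraries and G2 replicate 2 had the lowest ratios, while G2 replicate 1 lay within the Control range. The summed level of the 10 was 484 and 532 CPM per kilobase in G1, 275 and 339 in G2, 107, 135 and 102 in wild type (single mutant), and 167, 118 and 146 in Control, again in 3 steps with G1 highest.

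**Figure D3:**
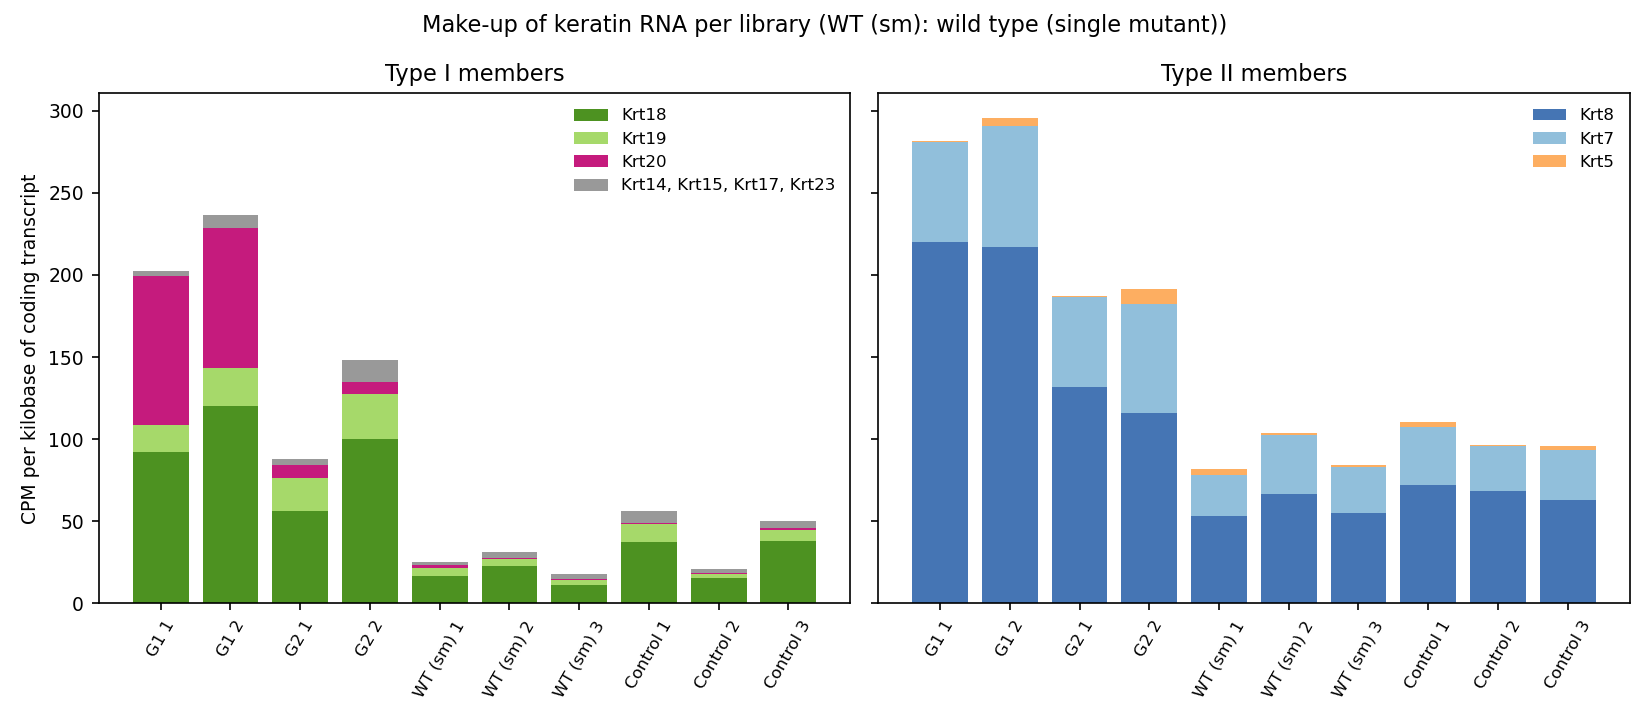
Keratin RNA per library in CPM per kilobase of coding transcript, stacked by gene, for type I members (left) and type II members (right). Krt20 fills 44.6% and 36.1% of the type I bars in G1 and at most 9.51% in any other library, while the type II bars are mostly Krt8 in all groups.

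Markers of urothelium varied from library to library, and the scarce keratins followed them in part. The summed CPM of 4 uroplakin genes (Upk1a, Upk1b, Upk2 and Upk3a, which coat the urothelial surface) was 7.08 and 44.2 in G1, 7.76 and 126 in G2, 46.7, 26.5 and 16 in wild type (single mutant), and 41.3, 25.0 and 39.3 in Control. G2 replicate 2 was highest in uroplakins, Krt5, Krt15 and Krt23, and the replicate 1 libraries of G1 and G2 were lowest in uroplakins and among the 4 lowest in Krt5. The order did not hold throughout: Krt14 and Krt17 were nearly level between the G2 libraries, and wild type (single mutant) replicate 1 had the most uroplakin RNA of its group with its lowest Krt15 and Krt23. Of 8 urothelial markers, edgeR called 0 between risk-allele and Control kidneys (1 at an unadjusted p under 0.05), against 37.3% of all genes. DESeq2 called 1 of these 8 markers, as lower. Their summed level ranged from 11.9 to 168 CPM over the risk-allele libraries, 33.1 to 102 CPM in wild type (single mutant) and 43.0 to 103 CPM in Control, and none of the 8 was at 0 in any library. The part of urothelium in the values of Krt5, Krt15 and Krt23 was not tested. Nor was it tested for Krt20 and Krt8. In G1 these measured 174 and 431 CPM at a uroplakin sum of 7.08 CPM (replicate 1), and 164 and 425 CPM at 44.2 CPM (replicate 2). In G2 they measured 16.1 and 259 CPM at 7.76 CPM (replicate 1), and 13.5 and 227 CPM at 126 CPM (replicate 2).

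Markers of the inner medulla varied within groups as well. The summed CPM of 4 thin limb and inner medulla genes, among them the urea transporter Slc14a2, was 252 and 382 in G1, 244 and 1149 in G2, 343, 525 and 501 in wild type (single mutant), and 1008, 298 and 763 in Control. In G1, G2 and Control, the libraries with the lowest sums (G1 replicate 1, G2 replicate 1 and Control replicate 2) also had the lowest Krt18 and Krt19 of their group. In wild type (single mutant) the library with the lowest sum had the highest Krt19. In G1 both libraries had higher Krt18 than any Control library, at sums below those of Control replicates 1 and 3. Of 10 markers of collecting duct principal cells, edgeR called 0 between risk-allele and Control kidneys, against 37.3% of all genes. In edgeR 1 had an unadjusted p under 0.05, and DESeq2 called 1 of these 10 markers, as lower. Their summed level was 398 to 808 CPM in G1, 784 to 2174 CPM in G2, 783 to 987 CPM in wild type (single mutant) and 1113 to 1417 CPM in Control. In G1 against Control 3 of the 10 fell and 0 rose, where 17.9% of all genes were lower. Without G1 replicate 2, 2 fell, where 6.87% of all genes were lower. Whether the amount of medulla in a sample moved these keratins was not tested.

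**Figure D4:**
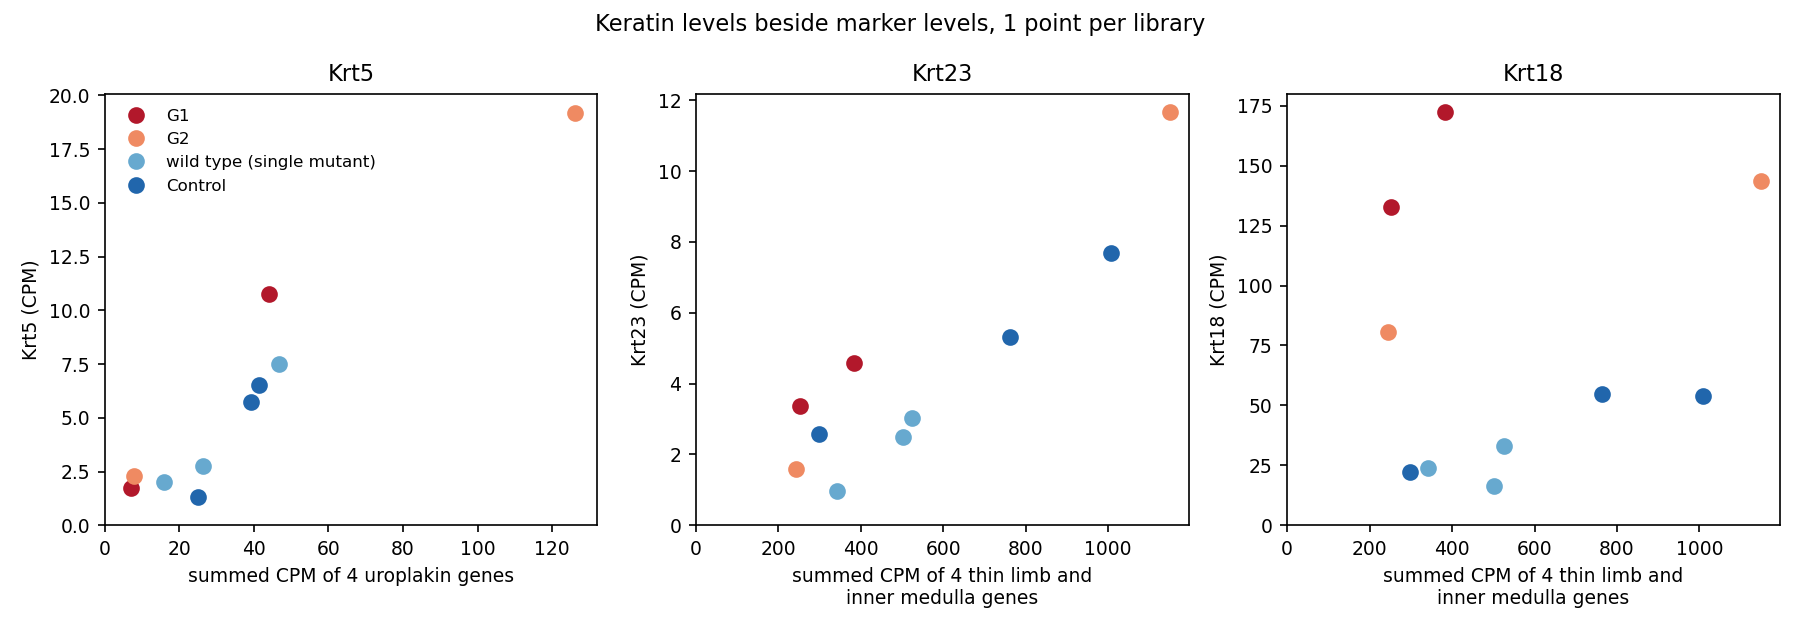
Levels of Krt5 against summed uroplakin genes, and of Krt23 and Krt18 against summed thin limb and inner medulla genes, in CPM on linear axes with 1 point per library. G2 replicate 2 lies at the far right in all panels (126 and 1149 CPM), and the G1 points of Krt18 lie high at marker sums of 252 and 382 CPM.

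Markers of tubular injury that are not keratins rose beside the 5 keratins. In risk-allele kidneys against Control 14 of 15 rose and 0 fell, where 19.3% of all genes were higher and 18% lower, with a median log2 fold change of 2.74. Lcn2, a secreted iron-carrier of stressed tubules, had a log2 fold change of 6.26 ± 0.34, Havcr1 (kidney injury molecule) 6.01 ± 0.47, Vcam1 4.58 ± 0.34 and Cd44 4.64 ± 0.37 (edgeR adjusted p = 2.88e-05 to 8.16e-05). The summed level of the 15 was 21312 and 30543 CPM in G1, 9159 and 5482 CPM in G2, and 941 to 1723 CPM in the 6 other libraries, the same order of groups as for Krt20 and Krt8. Gene by gene the alleles were closer, with a median log2 fold change against Control of 2.69 in G1 and 2.80 in G2. In G2 against G1, 3 of the 15 were called, all lower, where 2.88% of all genes were lower. Without G1 replicate 2, 0 of the 15 were called, and 22 of all genes. Without G1 replicate 2, 13 of 15 were called, all higher, where 13.8% of all genes were higher. Of 8 kidney identity genes 5 fell, where 18% of all genes were lower. Log2 fold changes were -2.33 ± 0.23 for the distal tubule transporter Slc12a3, -1.84 ± 0.14 for the proximal phosphate transporter Slc34a1, -1.53 ± 0.11 for Lrp2 and -0.72 ± 0.19 for Atp6v1b1 (edgeR adjusted p = 7.05e-05 to 0.0191). Without G1 replicate 2, 3 of the 8 fell, where 11.5% of all genes were lower. With library totals in place of TMM scaling 3 fell, where 8.98% of all genes were lower. Atp6v1b1 then stood at -0.45 (edgeR adjusted p = 0.114). The part of injured or lost tubules in the keratin values was not tested.

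Among the proteins that work with keratins, those of the hemidesmosome, which anchors filaments to the basement membrane, were called in 4 of 8 cases, all higher in risk-allele kidneys than in Control, where 19.3% of all genes were higher. Col17a1 averaged 6.55 CPM, against 0.215 CPM in Control (log2 fold change 4.59 ± 0.47), Itgb4 had a log2 fold change of 1.06 ± 0.22 and Cd151 of 0.68 ± 0.09 (edgeR adjusted p = 0.000196 to 0.00638). The Control level of Col17a1 was near the floor, as 3 counts equal 0.0981 to 0.109 CPM in Control. It may have passed the low-count filter through risk-allele libraries alone, so its values, that between the alleles included, are a description. The 4 calls and the median over the list include it, so the count beside the 19.3% is a description too. Col17a1 was lower in G2 than in G1 (-1.91 ± 0.47, edgeR adjusted p = 0.0465). Without G1 replicate 2 none of the 8 was called between the alleles, where only 22 of all genes were. The median over the 8 was 0.47, against 0.00 over all genes.

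Of 12 tested genes of desmosomes and linkers, which tie filaments together between cells, 4 rose and 1 fell in risk-allele kidneys against Control, with a median of 0.36; 5 of 12 called is near the 37.3% called over all genes. The linker plectin (Plec) had a log2 fold change of 1.05 ± 0.11, Perp of 0.52 ± 0.10, the plakophilin Pkp2 of 0.48 ± 0.12 and Pkp4 of -0.82 ± 0.11 (edgeR adjusted p = 0.000182 to 0.0133). Desmoplakin (Dsp), which holds keratins at the desmosome, had a value of 0.16 ± 0.45 and was not called. Without G1 replicate 2 there were 3 rises and 1 fall, where 13.8% of all genes were higher and 11.5% lower. With library totals in place of TMM scaling there were 7 rises and 1 fall, where 33.9% of all genes were higher and 8.98% lower.

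Of 10 keratin-binding and keratin-modifying proteins, 5 rose and 1 fell in risk-allele kidneys against Control, where 19.3% of all genes were higher and 18% lower, with a median of 0.34. The small heat shock protein Hspb1 had a log2 fold change of 1.73 ± 0.37, the keratin-binding 14-3-3 protein Sfn of 2.52 ± 0.59, Tradd of 0.38 ± 0.11 and the ubiquitin ligase Stub1 of -0.29 ± 0.08 (edgeR adjusted p = 0.00657 to 0.0225). Without G1 replicate 2 there were 2 rises and 0 falls, where 13.8% of all genes were higher and 11.5% lower. With library totals in place of TMM scaling, the median of all genes in this comparison moved up by 0.27, and the value of Stub1 became -0.0096 (edgeR adjusted p = 0.941), so that 7 of the 10 rose and 0 fell, where 33.9% of all genes were higher.

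Other intermediate filament genes rose too, in 5 of 12 tested cases against 19.3% of all genes, with a median of 0.86 and 0 falls. Vimentin (Vim), the filament of mesenchymal cells that dedifferentiated tubules are known to make, averaged 335 CPM in risk-allele kidneys, against 70.0 CPM in Control (log2 fold change 2.12 ± 0.19). Nestin (Nes) had a value of 1.84 ± 0.20, the lamin Lmnb1 of 1.87 ± 0.14 and Lmna of 0.88 ± 0.13 (edgeR adjusted p = 7.05e-05 to 0.00103). Epithelial identity genes were called in 2 of 10 cases, both higher, a share near the 19.3% over all genes: Elf3 at 1.24 ± 0.33 and Epcam at 0.82 ± 0.25 (edgeR adjusted p = 0.0163 and 0.0285). Neither was called without G1 replicate 2 (edgeR adjusted p = 0.0531 and 0.0851), where 1 of the 10 was called higher, as were 13.8% of all genes. With library totals alone 5 of these 10 were higher, where 33.9% of all genes were. Of 5 tested skin genes 1 was called with TMM scaling, Sbsn at 1.35 ± 0.22 (edgeR adjusted p = 0.00182), a share near the 19.3% of all genes called higher. A further 3 skin genes did not pass the filter.

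Of the 44 other keratin genes only 5 passed the low-count filter. Krt12 and Krt4 did so through risk-allele libraries alone, so their values are a description. Krt12, the type I keratin of the cornea, had 37 and 72 counts in G1, 9 and 7 counts in G2, and 0 counts in each of the 6 other libraries. Its level was at least 38.1-fold higher in G1 and at least 6.13-fold higher in G2 than in Control, taking 3 counts over the group as the floor. Krt12 lies 6143 bases from Krt20 on the same strand of chromosome 11 (99415666 to 99422259) and had 0.557% to 1.81% as many counts as Krt20 in the risk-allele libraries. The antisense gene A830036E02Rik overlaps it and had at most 11 counts; reads of the pair cannot be told apart without a strand setting. Krt222 averaged 1.88 ± 0.344 CPM in G1 and 0.738 ± 0.105 CPM in Control (log2 fold change 1.35 ± 0.33, edgeR adjusted p = 0.0121), and Krt10 averaged 7.67 ± 0.0561 CPM in G1 and 11.9 ± 2.78 CPM in Control (-0.63 ± 0.22, edgeR adjusted p = 0.0453). Without G1 replicate 2 the call of Krt222 held (1.55, edgeR adjusted p = 0.0374) and that of Krt10 was lost (-0.61, edgeR adjusted p = 0.188). Krt80 and Krt4 were not called in any comparison.

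The genes whose pattern over the 10 libraries was most like each keratin were found among 14347 tested genes, by the root mean square difference of centred log2(CPM + 1). Krt20 was nearest to complement C3 (0.44) and Havcr1 (0.72), against a spread of its own of 2.52. Krt8 was nearest to the chloride channel protein Clic1 (0.09) and Pafah1b3 (0.11), against 0.74. Krt7 was nearest to Trip10 (0.13) and Klc3 (0.14), against 0.55.

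Krt18 had Serpina3n (0.33) among its 2 nearest genes, against a spread of 1.13, and Krt19 was nearest to Oit1 (0.31) and Serpina3n (0.32), against 1.12. Krt5 was nearest to Ly6d (0.24) and Sprr2a3 (0.43), against 0.98, and both of these are known from layered epithelia; Sprr2a3 belongs to a family of near-identical copies, so its counts are uncertain. Krt15 was nearest to Fxyd3 and Rab15 (0.23 each), Krt23 to Rhpn2 (0.22) and Nyap1 (0.23), and Krt14 to Rdh12 (0.25) and Pax8 (0.31). Krt17 was nearest to Angpt4 (0.06) and Idua (0.09), but its own spread was only 0.19 on this scale. These likenesses are descriptions over libraries that differ in group.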

How the data were processed

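Each library has a deposited table of raw read counts by gene, which the authors did not normalize. The submitters' processing notes name HTSeq 0.6.1, STAR 2.4.1d, Trim Galore, FastQC and CASAVA 1.8.2, and the build GRCm38. An annotation release or strand setting is not given in the sources used. Symbols and positions came from GENCODE M21 (46005 of 46517 identifiers matched). Totals ran from 27596391 to 34815153 counts per library, where 1 CPM is about 30 counts; intervals and floors cover counting error only.

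Groups follow the genotype label, and replicate numbers follow accession order. All 10 libraries entered 1 edgeR 4.0.16 quasi-likelihood fit (in R 4.3.3), scaled by TMM, with a mean per group and a minimum count of 10 in filterByExpr, with Benjamini-Hochberg adjustment over the 17823 genes tested and calls at an adjusted p under 0.05. SE was taken from the fold change and its F value. CPM levels use TMM-scaled library sizes and are divided by coding transcript length where genes are compared. Python 3.11.15 was used with matplotlib 3.10.9, scipy 1.17.1 and pandas 2.3.3. The fit was tested on simulated counts.

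The keratin genes, the 13 gene lists and the tests were chosen with earlier results of these data known. All 10 keratins are named in every comparison; of the other keratins, the 5 with the lowest p, of each list up to 4 tested genes with the lowest p (further ones named were chosen after their values were seen), and of the likeness search the 2 nearest genes of at least 1 CPM. Some genes that these rules name are not reported here. Alternatives were DESeq2 1.42.0, library totals alone, no low-count filter, only the libraries compared, limma-voom (limma 3.58.1) and leaving out each library. Counts of list genes without G1 replicate 2 were added after seeing the data.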

Additional observations from a re-analysis of the deposited data

Results flagged for a closer look

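Krt20 and Krt8 were flagged because the effects of the alleles, each set against the same Control kidneys, differed by a test of the difference itself. The G2 over G1 log2 fold change was -3.52 for Krt20 (edgeR adjusted p = 0.0147; both G2 libraries below both G1 libraries, 16.1 and 13.5 CPM against 174 and 164 CPM). It was -0.82 for Krt8 (edgeR adjusted p = 0.0155; 259 and 227 CPM in G2 against 431 and 425 CPM in G1, again without overlap). With 2 libraries per allele, neither difference passed the threshold once G1 replicate 1, G1 replicate 2 or G2 replicate 2 was left out.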

How the results depend on the processing

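Set against either Control or wild type (single mutant), the risk-allele kidneys had calls for Krt8, Krt18, Krt7, Krt19 and Krt20 under each of 12 alternatives; log2 values against Control ranged from 5.15 to 5.94 for Krt20, 1.23 to 1.55 for Krt8, 0.94 to 1.30 for Krt7, 1.27 to 1.87 for Krt18 and 1.32 to 2.27 for Krt19. Fits on only the libraries compared called 3 keratins in G2 against Control, in place of 6 with Krt17 counted; Krt18 and Krt19 (edgeR adjusted p = 0.0878 and 0.078) and Krt17 (0.055) were lost, as was Krt19 in G1 (0.0645), and the cause was not tested. Leaving out 1 library gave 5 to 5 called keratins against Control, 5 to 6 against wild type (single mutant), 3 to 5 in G1, 2 to 4 in G2 and 0 to 2 between the alleles, and differences in mean log2 Krt8 to Krt18 ratio, risk-allele minus other kidneys, of -0.82 to -0.43. DESeq2 lost Krt17 in G2 (adjusted p = 0.0824) and called Krt14 against wild type (single mutant) (adjusted p = 0.039), as did library totals alone (0.0434).

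Scaling by library totals alone moved the median of all genes by 0.25 to 0.30 on the log2 scale in the risk-allele, G1 and G2 comparisons with Control and by 0.29 for the risk alleles over wild type (single mutant). The share of higher calls was then 79.0% in place of 51.7% against Control, 78.4% in place of 51.7% against wild type (single mutant), 76.3% in place of 52.2% in G1 and 85.3% in place of 58.9% in G2. Between the alleles it was 49.1% in place of 57.1%. Directions turned only in values that were not called: Krt23 to 0.28 against Control under library totals alone, and with limma-voom Krt23 to -0.020 in G2 against Control and Krt15 to 0.020 in wild type (single mutant) against Control.

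Without 1 library at a time, the following uncalled log2 values took either sign. Against Control, Krt23 ran from -1.04 to 0.38 and Krt5 from -0.24 to 1.27 for the risk alleles, Krt5 from -1.34 to 1.25, Krt15 from -0.47 to 0.95 and Krt23 from -0.72 to 0.0075 in G1, and Krt5 from -0.98 to 2.04 and Krt23 from -1.72 to 1.12 in G2. Against wild type (single mutant), Krt5 ran from -0.10 to 1.79 for the risk alleles. Between G2 and G1, the values ran from -1.49 to 2.55 for Krt5, -1.83 to 0.69 for Krt14, -0.27 to 1.86 for Krt15, -0.039 to 0.48 for Krt19 and -1.36 to 1.48 for Krt23. Between wild type (single mutant) and Control they ran from -0.93 to 0.21 for Krt5, -0.23 to 0.035 for Krt7, -0.89 to 0.31 for Krt14, -0.37 to 0.36 for Krt15, -1.29 to 1.67 for Krt17 and -0.58 to 0.82 for Krt20.

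Over all genes, calls numbered 2510 on only the libraries compared, against 3843, in G2 against Control, and 799 on only those and 2499 with DESeq2, against 1198, between the alleles. Without 1 library they ran from 3398 to 6079 in G1 (6656 with all), 1970 to 3225 in G2 and 22 to 778 between the alleles. Between wild type (single mutant) and Control, edgeR called 0, and 4 with no low-count filter. No paired analysis was possible because the labels carry no replicate numbers, so those used here only name libraries. With 2 libraries per allele group, each G1 or G2 value rests on few samples, and at this depth Krt17 and Krt12 rest on fewer than 100 counts per library. Krt14 did so in every library but G1 replicate 2, and Krt5, Krt15 and Krt23 in some libraries. The fold changes of Krt20 are taken over 15 to 44 counts per library in Control and 17 to 82 in wild type (single mutant).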
